A study of Mus musculus with 72 samples.

Results

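Newly made RNA was followed at the membranes of mouse embryonic stem cells (line E14TG2a, grown in 2i with LIF) after 20, 40 and 60 min of labeling with 4-thiouridine (4sU), in replicates 3 and 4, that is 6 of the 18 membrane libraries in a series of 72. Cells take up 4sU, a uridine analog, and build it into RNA made from then on, and after alkylation it is read as C where the genome has T (a T2C conversion). Cells were opened with digitonin, which releases the cytosol, then with NP-40, which releases the membrane fraction (mostly endoplasmic reticulum, ER, and mitochondria), and the pellet held the nuclei. All libraries came from labeled, otherwise untreated cells, with cycloheximide in the lysis buffers, and replicates were passaged and labeled separately. The labels put the 60 min libraries at 100 µM 4sU, but the methods place part of the 60 min libraries at 500 µM, and replicates 3 and 4 were taken as those, so that all 6 libraries share 1 dose; this assignment was not tested beyond the conversion rates, which were 6.97% and 8.09% in these 2 libraries and 2.64% and 2.82% in replicates 5 and 6 at 60 min.

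For each gene, the share of new to total mRNA is the number of T2C conversions in its exons, divided by the number of sequenced T positions and by the conversion rate of the library. Of 30099 genes with a row in any of the 72 libraries, 10754 had at least 2000 T counts in all 6 membrane libraries and are described here. They comprised 10076 protein-coding genes, 392 processed pseudogenes and 81 lincRNAs among other types, and 10411 of them had the 50 T2C counts over the 6 libraries that were asked for in tests.

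An mRNA that encodes a secreted or membrane protein is usually brought to the ER by its own translation. A hydrophobic stretch of the nascent chain, such as a signal peptide or a transmembrane segment, is bound by the signal recognition particle, which docks the ribosome at the translocon of the ER. New RNA can therefore reach membranes only after transcription to the end of the gene, processing and export from the nucleus, and its share there also depends on how long the old copies last, so that early arrival and fast turnover both give a high share. In these bulk libraries, fewer cells and less RNA per cell could not be told apart.

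The 6 libraries held between 18934375 and 37447227 reads on genes. Their conversion rates ranged from 2.81% at 20 min to 8.09% at 60 min, so that a share rests on more conversions at the later times. The summed level of 6 stem cell markers lay between 3680 and 4194 CPM (counts scaled to the total count of a library), against 2.18 to 4.62 for 4 primitive endoderm markers, 7.57 to 11.3 for 3 mesoderm markers, 12 to 18.9 for 2 neuroectoderm markers and 4.07 to 6.37 for 5 fibroblast markers, of which Lum was at 0 in all libraries examined. Nuclear RNA was present in the fraction: 4 nuclear RNAs (Malat1, Neat1, Kcnq1ot1 and Meg3) summed to 231 to 403 CPM, with means of 284, 297 and 366 CPM at 20, 40 and 60 min, against 886 to 2986 CPM in the nuclear and 83.5 to 177 CPM in the cytosolic libraries of the same cultures. The library of 40 min, replicate 4, stood apart, with 4.39% of its gene counts on mitochondrial genes against 8.85% to 10.5% in the other 5, and introns held 2.51% of the T count of exons against 3.51% to 4.74%. The part of nuclear RNA and of this library in the results below was not tested, beyond the values given without the library.

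The median gene had a share of new mRNA at membranes of 2.68% and 2.88% at 20 min in replicates 3 and 4, of 5.18% and 4.88% at 40 min, and of 9.52% and 8.81% at 60 min. The replicates of the 3 times did not overlap. The means were 2.78% ± 0.143, 5.03% ± 0.211 and 9.17% ± 0.500 (SD, n = 2), close to those in the cytosol of the same cultures (2.47% ± 0.384, 4.57% ± 0.381 and 9.07% ± 0.0885), while the nucleus was at 10.3% ± 1.72, 14.9% ± 0.300 and 23.1% ± 5.76. Genes differed far more than libraries did: at 60 min, the 10th and 90th percentiles were 2.97% and 31.6% in replicate 3 and 2.84% and 29.5% in replicate 4. In replicates 5 and 6, labeled at the lower dose, the median share at 60 min was 15.1% and 13%, above both libraries of replicates 3 and 4.

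**Figure D1:**
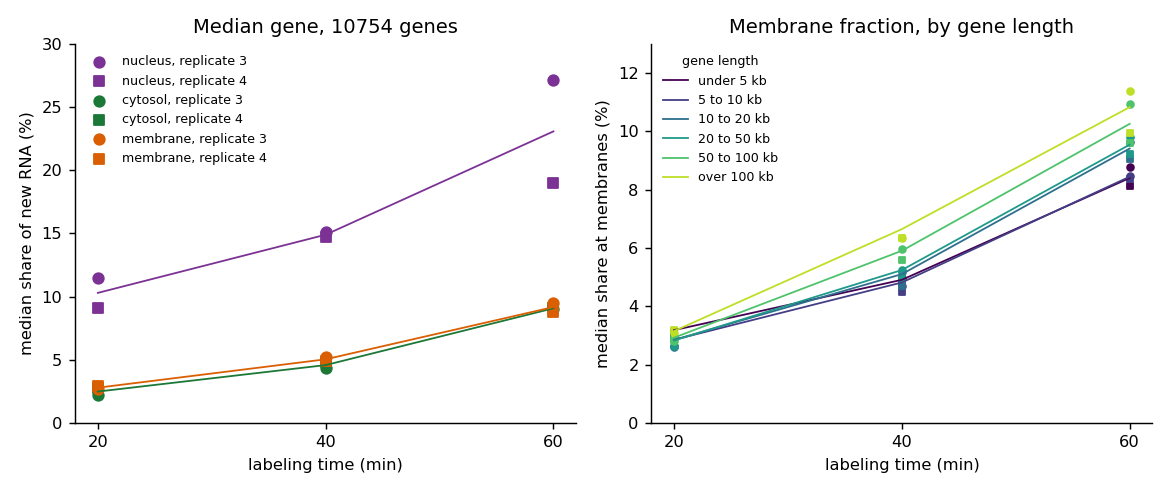
Left, median share of new RNA (%) over 10754 genes against labeling time (min) in nucleus, cytosol and membrane fraction, with 1 point per library (circles replicate 3, squares replicate 4) and lines through the means; right, the same for the membrane fraction by gene length, where lines join the medians over genes of each gene's mean of both replicates. Membrane and cytosol lie close together, between 2.20% and 2.88% at 20 min and between 8.81% and 9.52% at 60 min, below the nucleus at each time.

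In a fit of edgeR's quasi-likelihood test to T2C counts, the share itself rose from 20 to 60 min in 8014 of 10411 genes (77% of genes tested) and fell in 12 (0.115%), at a Benjamini-Hochberg adjusted p under 0.05 and an absolute log2 change over 0.5. To order the genes in time, each library was centred on its median gene. At 20 min, 2881 genes stood above the median gene (27.7% of genes tested) and 1063 below it (10.2%). At 60 min, 3384 genes stood above it (32.5%) and 2353 below (22.6%). Of the genes above at 20 min, 2434 were also above at 60 min (84.5% of the 20 min calls and 71.9% of the 60 min calls), and 860 were below at both times (80.9% and 36.5%). A total of 18 genes went from above to below and 3 from below to above. The counts below the median gene depended on single libraries: without the 20 min library of replicate 4 there were 479 at 20 min, and without the 60 min library of replicate 3 or 4 there were 1272 or 1171 at 60 min. Replicates were few, and p-values measure only the spread between these libraries.

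At the top of the ranking at 20 min stood noncoding transcripts. Over all 2872 annotated genes above the median gene at that time, 93.4% were protein-coding, against 94% of the 10394 annotated genes tested. The 8 highest shares at 20 min among genes above the median gene belonged to Rab26os, Dancr, 6720427I07Rik, Snhg15, 5430416N02Rik, Gm21781, Snhg3 and an identifier without a symbol whose counts were nearly those of Dancr, so that these 2 cannot be told apart. Snhg15 and Snhg3 are host transcripts of small nucleolar RNAs (snoRNAs), which are cut from their introns. Shares of the 8 lay between 57.4% and 126% at 20 min, far above the median gene.

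Dancr (chromosome 5, 74093060 to 74095406, plus strand, build GRCm38) had shares of 111% and 95.1% at 20 min, 130% and 135% at 40 min, and 115% and 103% at 60 min. Its value exceeded 100% in 5 of 6 libraries, which is possible because 1 conversion rate is applied to a whole library, and between 0 and 13 genes per library did so. Snhg15 (chromosome 11, 6525591 to 6528760, minus strand) had 80.7% and 85.2% at 20 min, 109% and 76.8% at 40 min, and 103% and 97.3% at 60 min. Snhg3 (chromosome 4, 132348014 to 132353686, minus strand) had 69.7% and 62.4% at 20 min, then 106% and 78.6%, then 99.2% and 82.0%. The times overlapped for Snhg15 and Dancr, and for Snhg3 the 20 min libraries lay below the 4 later ones.

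Relative to the median gene, Dancr stood at log2 5.21 ± 0.10 (SE, adjusted p = 4.1e-21), Snhg15 at 4.87 ± 0.16 (adjusted p = 1.2e-16) and Snhg3 at 4.57 ± 0.11 (adjusted p = 5.6e-19) at 20 min in edgeR's quasi-likelihood test. These RNAs were more abundant in the nucleus: Snhg3 had 15.4 to 22.7 CPM at membranes and 51.9 to 104 CPM in the nucleus, and Snhg15 had 12.4 to 18.3 against 30.5 to 50.3 CPM. The part of nuclear RNA in their shares at membranes was not tested. In replicates 1 and 2, with shorter times, Snhg15 went from 17.5% and 24.4% at 15 min through 52.6% and 68.3% at 20 min to 119% and 105% at 30 min.

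Among protein-coding genes, a group added after values were seen, the highest shares at 20 min belonged to Gm47283, Zfp773, Txnip, Dusp1, Yod1, Zbtb6, Nfkbid, Tagap, Tcf7l2, Lif, Zfp367 and Ier3. Several are known as short-lived regulators: Txnip binds thioredoxin, Dusp1 is a phosphatase of MAP kinases, Yod1 is a deubiquitinase, Nfkbid a nuclear IκB protein, Lif a cytokine and Zfp773, Zbtb6 and Zfp367 zinc finger proteins. Txnip (chromosome 3, 96557957 to 96561883, plus strand) had 39.3% and 35.5% at 20 min, 72.0% and 62.7% at 40 min, and 91.0% and 89.95% at 60 min, on 4963 T2C counts at 20 min. Its 3 times did not overlap, and at 20 min it stood at log2 3.75 ± 0.07 over the median gene (adjusted p = 2.8e-21, edgeR's quasi-likelihood test). Zfp773 followed the same order, with 38.7% and 41.2%, then 62.1% and 65.5%, then 78.6% and 91.5%.

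Gm47283 and Tcf7l2 went another way. A share is divided by a conversion rate that grows with time, and the part of this in the falling share of Gm47283 was not tested. Gm47283, a gene on chromosome Y, had 75.5% and 56.5% at 20 min, 47.3% and 34.7% at 40 min, and 43.7% and 44.8% at 60 min, and its share also went down in replicates 1 and 2, from 70.4% and 76.4% at 15 min to 59.8% and 51.9% at 30 min. Tcf7l2, a transcription factor of the Wnt pathway, had 12.2% in replicate 3 and 53.8% in replicate 4 at 20 min, so that its place rests on 1 library.

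Most of these first genes are not enriched at membranes. Localization was therefore set for each gene from the ratio of membrane to cytosol expression in replicates 1, 2, 5 and 6, none of which entered the 6 libraries, with a ratio over 3 called membrane-localized and under 1.5 cytosol-localized. This gave 1588 membrane-localized and 8005 cytosol-localized genes. Among the membrane-localized genes the highest shares at 20 min, again a group added after values were seen, belonged to Gm28438, Ccn2, Ccn1, Paqr8, Gm13341, Flrt3, Sft2d3 and Dnajb9. Gm28438 and Gm13341 are pseudogenes that can share reads with other copies and are uncertain. Among those with enough T2C counts for tests, the lowest shares at 60 min belonged to Dgat1, H2-K1, Adam15, Atp2a3, Gpr108, Clcn2, Ssr4 and Pnpla6.

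The starts of the coding sequences of 3 first and 2 last membrane-localized genes are given, to show the hydrophobic segment near the start of the encoded proteins. They were read from GENCODE M21 coding exons in GRCm38, with the first hydrophobic segment in capitals. A segment was sought from the first window of 19 residues with a mean Kyte-Doolittle hydropathy of at least 1.6, and set at the window with the highest mean among the 19 that start from there. They are Ccn2 (chromosome 10, plus strand, 24595726 to 24595788 and 24595876 to 24595899), Flrt3 (chromosome 2, minus strand, 140661596 to 140661706), Dnajb9 (chromosome 12, minus strand, 44208202 to 44208303), Ssr4 (chromosome X, plus strand, 73787240 to 73787306 and 73788835 to 73788860) and Pnpla6 (chromosome 8, plus strand, 3516723 to 3516749, 3517077 to 3517164 and 3517325 to 3517332).
Ccn2: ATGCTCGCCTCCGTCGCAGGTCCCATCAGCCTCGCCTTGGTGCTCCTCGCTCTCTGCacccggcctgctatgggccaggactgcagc
Flrt3: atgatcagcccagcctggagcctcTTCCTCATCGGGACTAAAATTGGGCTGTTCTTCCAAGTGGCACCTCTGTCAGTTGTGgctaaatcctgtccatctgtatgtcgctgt
Dnajb9: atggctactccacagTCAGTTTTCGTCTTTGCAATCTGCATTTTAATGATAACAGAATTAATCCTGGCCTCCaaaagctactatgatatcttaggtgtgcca
Ssr4: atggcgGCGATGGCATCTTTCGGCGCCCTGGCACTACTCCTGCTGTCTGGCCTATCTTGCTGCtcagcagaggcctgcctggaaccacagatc
Pnpla6: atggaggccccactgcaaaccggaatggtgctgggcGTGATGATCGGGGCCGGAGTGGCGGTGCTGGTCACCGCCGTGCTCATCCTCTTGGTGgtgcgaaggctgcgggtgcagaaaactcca

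These 5 genes were shown because they were classed as having such a segment near the start of the protein. Of the other first genes Paqr8 and Sft2d3 had one elsewhere and Ccn1 had none, and of the other last genes Dgat1, Adam15, Atp2a3, Gpr108 and Clcn2 had one elsewhere and H2-K1 only near the C-terminus. In the genes shown, its mean hydropathy was 2.3 in Ccn2, 1.68 in Flrt3 and 2.4 in Dnajb9, and 1.92 in Ssr4 and 2.91 in Pnpla6, so that the ranges of the first and the last genes shown overlapped.

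Ccn2 and Ccn1 encode secreted matricellular proteins of growth control. Ccn2 had shares at membranes of 24.5% and 23.4% at 20 min, 43.8% and 37.4% at 40 min, and 74.7% and 73.4% at 60 min. Ccn1 had 24.3% and 22.5%, then 51.7% and 50.1%, then 85.7% and 88.8%. The 3 times did not overlap in either gene, and each stood above the median gene at 20 min, by log2 3.10 ± 0.14 for Ccn2 (adjusted p = 4.4e-14) and 3.07 ± 0.14 for Ccn1 (adjusted p = 2.4e-14, edgeR's quasi-likelihood test).

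Dnajb9, a cochaperone of the ER lumen, had 17.7% and 16.7% at 20 min, 49.4% and 40.8% at 40 min, and 70.5% and 64.3% at 60 min, again without overlap. Flrt3, an adhesion protein with 1 transmembrane segment, had 23.0% and 12.8%, then 31.4% and 29.6%, then 62.6% and 48.9%. In replicates 5 and 6 at 60 min the shares were 84.8% and 77.5% for Dnajb9 and 78.4% and 76.7% for Flrt3, higher than in replicates 3 and 4, as for the median gene.

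Paqr8, a membrane progestin receptor, had a share near that of Ccn2 at 20 min that was not higher later in these 6 libraries. The part of the growing conversion rate in this was not tested. The share of Paqr8 was 21.2% and 21.7% at 20 min, 17.8% and 12.6% at 40 min, and 16% and 19% at 60 min, all 4 later libraries below both early ones. It rested on 94 T2C counts at 20 min and 180 at 60 min. In replicates 5 and 6 it reached 46.4% and 36.2% at 60 min and 105% and 82.0% at 120 min.

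Among the last, Ssr4 encodes a subunit of the translocon-associated complex and Pnpla6 a phospholipase of the ER membrane. Ssr4 had shares of 1.78% and 1.44% at 20 min, 0.775% and 0.656% at 40 min, and 1.13% and 0.847% at 60 min. Pnpla6 had 1.44% and 1.42%, then 0.718% and 1.13%, then 0.845% and 1.33%. In both genes the 20 min libraries were the highest. The conversion rate that divides these shares grew with time, and the part of this in the lower later shares was not tested. At 60 min Ssr4 stood at log2 -3.21 ± 0.41 (adjusted p = 7.0e-07) and Pnpla6 at -3.05 ± 0.43 (adjusted p = 2.4e-06) relative to the median gene by edgeR's quasi-likelihood test. By 120 min in replicates 5 and 6, Pnpla6 had reached 8.10% and 7.77%, against 1.67% and 1.52% at 60 min, while Ssr4 had 4.24% and 4.51% against 2.19% and 2.00%.

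The lowest shares were ranked only among the 10411 of 10754 genes with enough T2C counts for tests. A low share gives few conversions, so that genes with lower shares may have been left out. Of tested genes below the median gene, Arl3, Dgat1, H2-K1, Lars2, Lta4h, Jak3, Acy1 and Ssbp4 had the 8 lowest shares at 60 min. They comprise a small GTPase of cilia (Arl3), the enzyme that makes triglycerides (Dgat1), a major histocompatibility class I chain (H2-K1), the mitochondrial leucyl-tRNA synthetase (Lars2), an enzyme of leukotriene synthesis (Lta4h), a cytokine receptor kinase (Jak3) and an aminoacylase (Acy1). Lars2 (chromosome 9, 123366927 to 123462666, plus strand) had 1.75% and 2.01% at 20 min, 1.22% and 1.79% at 40 min, and 0.775% and 0.765% at 60 min, the latter 2 below the other 4. It was the best counted of the 8, with 510 T2C counts at 60 min, and stood at log2 -3.57 ± 0.28 relative to the median gene (adjusted p = 2.8e-10, edgeR's quasi-likelihood test). The remaining 7 rested on 16 to 73 T2C counts at 60 min.

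The raw ratio of conversions moved little in some of these genes. The ratio of T2C to T counts of Lars2 was 0.052% at 20 min and 0.0566% at 60 min, and that of H2-K1 was 0.053% and 0.0556%, while that of Dgat1 was 0.0173% and 0.049%, or 2.84 times higher. The gene at the 5th percentile went from 0.0231% and 0.022% at 20 min to 0.144% and 0.165% at 60 min, and the median gene from 0.0753% and 0.0892% to 0.663% and 0.713%. The division by a conversion rate that grows with time then turns a flat ratio into a falling share. An unlabeled library was not analysed here, so that the ratio without new RNA is not known. The raw ratio was not higher at 60 than at 20 min in 16 of the 10411 genes, among them Med12, Phka2, Gpat2, Map4k1, Ahi1 and Slc6a16, and a sequence difference from the reference would give the same pattern, which was not tested.

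**Figure D2:**
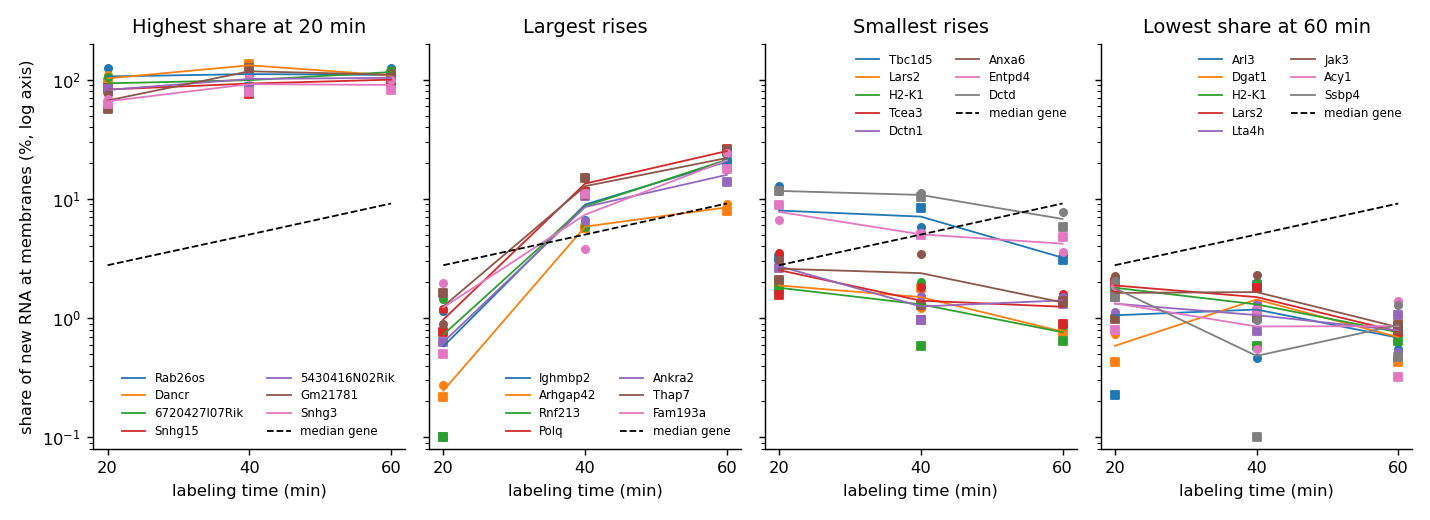
Share of new RNA at membranes (%, log axis) against labeling time (min) for the first genes, 7 of the largest rises and the smallest rises relative to the median gene, and the last genes, with circles for replicate 3, squares for replicate 4, lines through the means, points under 0.1% drawn at that value, and the median gene as a dashed line. The first genes lie between 57.4% and 126% at 20 min and the last genes between 0.32% and 1.39% at 60 min.

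Genes were next compared by how much their share rose from 20 to 60 min relative to the median gene, which rose by log2 1.72. A total of 80 genes rose more (0.768% of genes tested) and 411 rose less (3.95%), by edgeR's quasi-likelihood test at the same thresholds. These counts depended on the test and the libraries. On log2 shares with a pseudocount of 0.005, limma called 0 in either direction, with 2012 genes at an unadjusted p under 0.05 against 2179 in edgeR, and DESeq2 called 112 and 598. Centring each library on its pooled share or by TMM normalization in place of the median gene changed the split to 444 and 131 or to 151 and 273, as these scalings lower the common rise by 0.34 and 0.13 on the log2 scale. Without the 60 min library of replicate 3 there were 3 and 73 genes, without that of replicate 4 there were 3 and 55, and without the 20 min libraries of replicates 3 and 4 there were 67 and 200, and 51 and 327.

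Among the largest rises were those of Ighmbp2, Arhgap42, Rnf213, Polq, Ankra2, Thap7 and Fam193a, which rested on 3 to 18 T2C counts at 20 min. The minimum of T2C counts asked for in tests was summed over the 20, 40 and 60 min libraries together. These genes thus met it through the later counts that also give their rise. Without this minimum, 78 genes rose more and 411 less, and the 8 largest rises, these 7 among them, were still called. Polq (chromosome 16, 37011786 to 37095417, plus strand), which encodes the DNA polymerase theta of end joining, had shares of 1.19% and 0.758% at 20 min, 15.4% and 11.5% at 40 min, and 24.4% and 26.1% at 60 min. The times did not overlap, and its rise exceeded that of the median gene by log2 2.99 ± 0.63 (adjusted p = 0.00797, edgeR's quasi-likelihood test), which limma did not call (adjusted p = 0.138). All 7 of these calls were lost when either 60 min library or the 20 min library of replicate 4 was left out.

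Among the smallest rises were Dctd, Entpd4, Dctn1, Anxa6, Tcea3 and Tbc1d5, beside Lars2 and H2-K1. Dctd (chromosome 8, 48099092 to 48153233, plus strand), which encodes the dCMP deaminase of thymidylate synthesis, had 11.7% and 11.6% at 20 min, 11.3% and 10.3% at 40 min, and 7.72% and 5.87% at 60 min, on 741 T2C counts at 20 min. It thus stood above the median gene at 20 min (log2 2.07 ± 0.13, adjusted p = 1.2e-11), with a rise of log2 -2.51 ± 0.23 relative to it (adjusted p = 1.5e-06, edgeR's quasi-likelihood test), which limma did not call (adjusted p = 0.138). Entpd4, a nucleotidase of the Golgi, had 6.68% and 8.90%, then 5.14% and 4.96%, then 3.62% and 4.81%, with the 60 min libraries below both 20 min libraries. The conversion rate that divides these shares grew with time, and the ratio of T2C to T without new RNA is not known for these genes either.

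From 20 to 40 min, 41 genes rose more than the median gene (0.394%) and 50 rose less (0.48%), counts that fell to 0 and 2 without the 40 min library of replicate 4, to 14 and 20 without that of replicate 3, to 1 and 1 or 0 and 5 without the 20 min library of replicate 3 or 4, and to 3 and 15 or 3 and 17 without the 60 min library of replicate 3 or 4. From 40 to 60 min, 0 genes rose more (0%) and 9 less (0.0864%) by edgeR's quasi-likelihood test, with 633 genes at an unadjusted p under 0.05, and DESeq2 called 1 and 23. The number of genes called below was 0 without the 40 min library of replicate 4 or without either 60 min library, and 5 without each of the other 3 libraries in turn.

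Lists of genes grouped by function differed in their level of new RNA, and were described by counts and medians against those of all genes tested, whose median went from 2.92% at 20 min to 9.56% at 60 min. The growth response genes were the highest among lists of mRNAs from the nuclear genome. All 27 immediate early and growth response genes measured stood above the median gene at 60 min and 26 did at 20 min, with medians of 17.8% and 58.3%, against 27.7% and 32.5% of all genes. Zfp36, which encodes an mRNA decay factor, went from 28.3% to 97.0% (means of 2 libraries), Spry4, an inhibitor of growth factor signaling, from 30.2% to 93.4%, and Srf, the serum response factor, was the lowest of the list, from 4.40% to 16%. Of 20 pluripotency factors, 14 stood above at both times, with Tbx3 at 17.7% and 51.2% and Klf4 at 18.4% and 46.3%, while Pou5f1 was the lowest with 1.94% and 3.03%. Of 322 zinc finger genes measured, 253 stood above at 20 min and 289 at 60 min. Of 39 chromatin regulators, 23 stood above and 5 below at 60 min, against 32.5% and 22.6% of all genes. They ranged from Tet2 (10.5% to 40.9%) to Smarca4 (1.75% to 3.21%). Myc, the growth regulator, had 19% and 14.1% at 20 min, 38.0% and 35.5% at 40 min, and 63.6% and 52.9% at 60 min, without overlap between times.

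In 4 lists whose proteins enter or cross the ER, or serve that passage, more members stood below the median gene than above it at 60 min. Of all genes, 32.5% stood above and 22.6% below. Adhesion receptors, solute carriers and Tmem genes, given further below, had more members above than below, so that this does not hold for all lists of membrane proteins. Of 33 ER chaperones and folding enzymes, 5 stood above and 12 below. Dnajb9 and Herpud1, both known targets of the unfolded protein response, were the highest, with Herpud1 at 7.16% at 20 min and 42.8% at 60 min, and Ppib, a prolyl isomerase, the lowest, at 1.6% and 1.96%. Of 36 genes of the translocon, signal recognition and glycosylation machinery, 4 stood above and 22 below at 60 min, and the list's median went from 2.13% to 5.94%. Basement membrane genes were among the last, with 0 of 21 above and 15 below at 60 min in edgeR's quasi-likelihood test and medians of 1.91% and 3.31%, from P4ha1, a collagen prolyl hydroxylase (3.43% to 8.91%), to Agrn, the proteoglycan agrin (1.08% to 1.11%). Lysosomal genes had 2 of 41 above and 22 below at 60 min.

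Surface proteins and transporters lay near the median gene, and their counts at 60 min are read against the same 32.5% above and 22.6% below. Of 53 adhesion and surface receptor genes, 19 stood above (35.8%) and 8 below (15.1%), from Epha2, an ephrin receptor (10.4% to 60.7%), to Ptprs, a receptor phosphatase (1.37% to 1.83%). Of 172 solute carriers, 44 stood above (25.6%) and 35 below (20.3%), and of 132 Tmem genes 43 (32.6%) and 25 (18.9%), shares near those of all genes. Of 26 genes of cholesterol synthesis and uptake, 5 stood above and 7 below, with Mvk, mevalonate kinase, the lowest (1.84% to 1.23%). Tail-anchored proteins, which insert into membranes after their synthesis is complete, had 10 of 49 above and 10 below. Tfrc, the transferrin receptor, had 3.12% and 2.36% at 20 min, 6.0% and 5.71% at 40 min, and 12.7% and 10.3% at 60 min, near the median gene at 20 min (log2 -0.01 ± 0.14).

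Several housekeeping machineries were low. Of 84 cytosolic ribosomal protein genes, 60 stood below the median gene at 20 min and 81 at 60 min, against 10.2% and 22.6% of all genes. Of the same 84, 38 rose less than the median gene, against 3.95% of all genes, and the medians were 1.82% and 3.75%. Of 77 nuclear-encoded subunits of the respiratory chain, 55 stood below at 20 min and 70 at 60 min, with medians of 1.47% and 3.02%, the lowest of the lists. Of 36 proteasome subunits, 27 and 29 stood below. The ratio of T2C to T without new RNA is not known for these lists. Its part in their low shares, in those of other low lists, and in the smaller rises of ribosomal protein genes was not tested. The 9 mitochondrial-encoded transcripts measured, which need no export from the nucleus, all stood above at both times, against 27.7% and 32.5% of all genes. All 9 rose less than the median gene, against 3.95% of all genes. Their medians were 17.1% and 37.2%, from mt-Nd2 (26.4% to 53.8%) to mt-Co1 (6.23% to 14.0%). Mitochondria are part of the fraction, and the 40 min library of replicate 4 held the fewest of these reads. Of 13 snoRNA host transcripts, 11 stood above at 20 min and 12 at 60 min, against 27.7% and 32.5% of all genes, with medians of 28.8% and 61.8%. The other lists at 60 min, some of few genes, are read against 32.5% of all genes above and 22.6% below. A larger part stood below in most of them. Translation factors had 6 of 62 above and 31 below, replication genes 6 of 34 and 16, and tubulins and actins 1 of 28 and 9. TRiC chaperonin and heat shock genes had 1 of 18 and 15, glycolytic enzymes 1 of 15 and 13, and mitochondrial ribosomal proteins 11 of 78 and 30. Nuclear-retained noncoding RNAs had 7 of 9 above and 0 below, and 1 histone gene was measured.

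**Figure D3:**
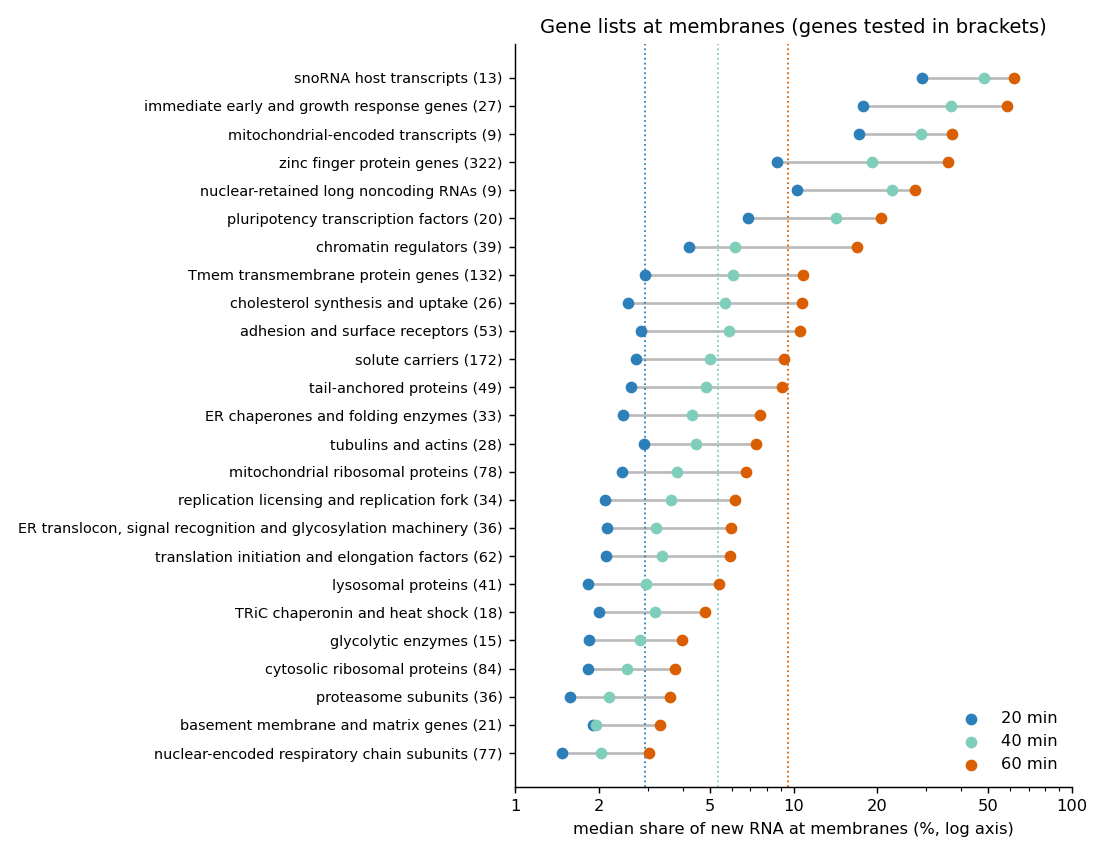
Median share of new RNA at membranes (%, log axis) in 25 gene lists at 20, 40 and 60 min, with the number of genes tested in brackets and dotted lines at the median of all genes tested at each time. Lists range from 1.47% for respiratory chain subunits to 28.8% for snoRNA hosts at 20 min, and from 3.02% to 61.8% at 60 min.

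Localization was compared within each library. The ratio of the median share of membrane-localized genes to that of cytosol-localized genes was 0.847 and 0.876 at 20 min, 0.825 and 0.814 at 40 min, and 0.820 and 0.848 at 60 min, below 1 in all 6 membrane libraries. The mean log2 ratio was -0.25 ± 0.04 (SD, n = 6; exact sign-flip permutation test over libraries, two-sided, p = 0.03125, the smallest that 6 libraries can give). In the cytosol of the same cultures the ratio was 1.71 and 1.63 at 20 min, 2.32 and 2.62 at 40 min, and 2.10 and 2.38 at 60 min. In the nucleus it lay between 0.956 and 1.07. New RNA of membrane-localized genes was thus a larger part of their RNA in the cytosol than at membranes: over 796 such genes with 2000 T counts in both fractions, the median of the ratio of membrane to cytosol share was 0.634 and 0.591 at 20 min, 0.528 and 0.436 at 40 min, and 0.534 and 0.498 at 60 min, against 1.10 to 1.26 over 7893 cytosol-localized genes. Tfrc was one of them, with 12.3% and 10.9% in the cytosol at 20 min and 38.1% and 33.6% at 60 min, above its membrane share in each culture.

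The classes by hydrophobic segment gave ratios in the same direction. A segment starting within 40 residues of the N-terminus was found in 1229 proteins, and 74.5% of these genes were membrane-localized, against 1.64% of 6816 without any segment. Their median share was 0.860 of that of genes without a segment (mean over 6 libraries, log2 -0.22 ± 0.04). For 1634 genes with a segment elsewhere the ratio was 0.895, and for 304 with one only within 50 residues of the C-terminus it was 0.899, each lower in 6 of 6 libraries (exact sign-flip permutation test, two-sided, p = 0.03125 for each of the 3; 0.03125 after Benjamini-Hochberg adjustment over them). A window of 19 residues misses short signal peptides, and H2-K1 was placed among the C-terminal ones.

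Genes under 5 kb had the smallest median rise of the 6 length classes. Across 10394 genes, Spearman's rho between gene span and the rise from 20 to 60 min was 0.119 in replicate 3 and 0.105 in replicate 4, a weak relation across genes, which are not independent replicates and share libraries. The median rise relative to the median gene was -0.37 on the log2 scale for genes under 5 kb, 0.03 for genes of 50 to 100 kb and -0.05 for genes over 100 kb, so that it did not go on increasing with length. Genes over 100 kb had a median share of 3.07% and 3.20% at 20 min and of 11.4% and 9.95% at 60 min, and genes under 5 kb 2.91% and 3.12%, then 8.78% and 8.12%. The 80 genes with larger rises had a median span of 35.6 kb and 408 of the 411 with smaller rises 10.9 kb, against 22.8 kb for all genes.

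Within long genes, the share was higher near the 3′ end. In 133 genes over 100 kb with exons both under 30 kb and over 60 kb from the 3′ end, the near exons had a median share of 2.49% and 2.58% at 20 min, 4.53% and 4.23% at 40 min, and 7.31% and 6.54% at 60 min. The far exons of the same genes had 1.48% and 1.2%, then 0.917% and 0.785%, then 1.42% and 1.28%. In these genes, the medians of near exons rose without overlap between times, while those of far exons did not rise in order. Near exons were the higher in 72.2% and 74.4% of genes at 20 min and in 93.2% and 89.5% at 60 min. The conversion rate that divides these shares grew with time, and the ratio of T2C to T without new RNA is not known for these exons. The part of this in the shares of far exons was not tested. Counts pooled over the exons of all genes over 100 kb, which differ in the genes behind each distance, did rise in order far from the 3′ end. For 561 exons at 60 to 100 kb the pooled share was 3.44% and 3.50% at 20 min, 6.51% and 5.27% at 40 min, and 11.9% and 10.7% at 60 min (3.25-fold between the means at 20 and 60 min). For 737 exons over 100 kb away it was 2.18% and 2.37%, then 2.92% and 2.43%, then 4.68% and 4.13% (1.93-fold), and for 2717 exons under 10 kb the fold was 3.10.

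**Figure D4:**
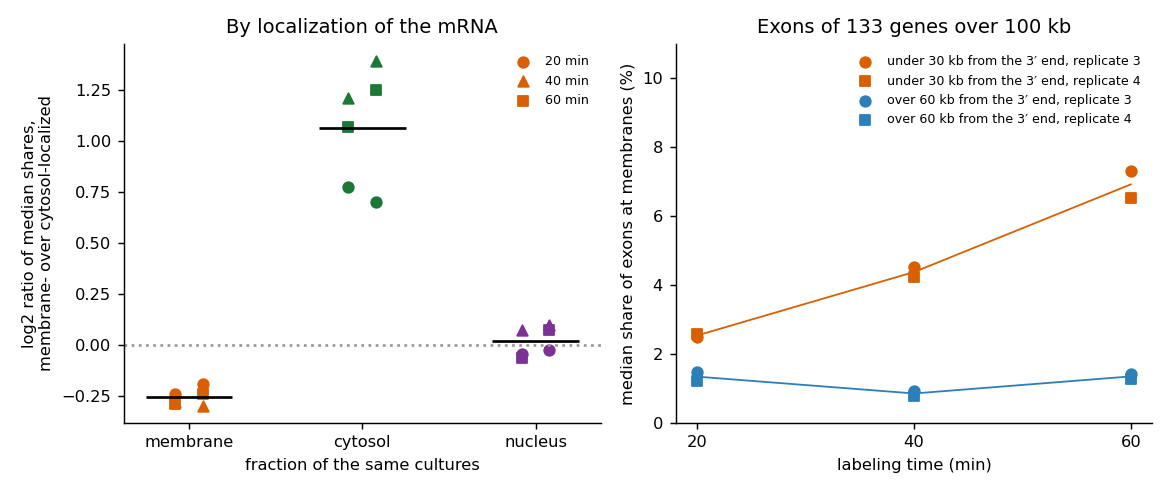
Left, log2 ratio of the median share of membrane-localized to that of cytosol-localized genes in each library of 3 fractions, with replicate 3 left and replicate 4 right of each centre and bars at the mean; right, median share (%) of exons near to and far from the 3′ end in 133 genes against labeling time (min). All 6 membrane libraries lie below 0 and all 6 cytosol libraries above it, and near exons reach 6.54% and 7.31% while far exons stay at or under 1.48%.

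The order of arrival was set beside other replicates with other times. From 15 to 30 min in replicates 1 and 2, 1395 of 7241 genes rose more than the median gene (19.3%) and 661 less (9.13%) by edgeR's quasi-likelihood test. Of the 80 genes that rose more from 20 to 60 min, 69 were measured there, of which 51 rose more than the median gene in sign and 21 were called, with a median of log2 0.81 against 0.22 for all genes, 57.6% of which were positive. Of the 411 that rose less, 304 of 396 had the same sign, as did 42.4% of all genes, and 158 were called, with a median of -0.59. From 60 to 120 min in replicates 5 and 6, 645 of 10393 genes rose more (6.21%) and 928 less (8.93%), and 26 of the 80 had a positive and 294 of 409 of the others a negative sign, as did 40.6% and 59.4% of all genes. The counts of 15 to 30 min were 674 and 283 without the 15 min library of replicate 1, 963 and 382 without that of replicate 2, and 825 and 194 without the 30 min library of replicate 2, and those of 60 to 120 min were 392 and 647 without the 120 min library of replicate 5.

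The classes of localization changed places over these times. Membrane-localized genes had a median rise relative to the median gene of log2 -0.48 from 15 to 30 min and of 0.22 from 60 to 120 min, and cytosol-localized genes of 0.40 and -0.15. The medians of all genes were 0.22 and -0.09. From 20 to 60 min the medians of the 2 classes were -0.05 and -0.11, against -0.11 for all genes. Of the membrane-localized genes measured, 118 of 1249 were called above and 310 below from 15 to 30 min, against 19.3% and 9.13% of all genes. From 60 to 120 min, 297 of 1527 were called above and 26 below, against 6.21% and 8.93%. Localization was set in replicates 1, 2, 5 and 6, from gene counts and not from conversions.

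The rise at membranes was last compared with that in the cytosol of the same cultures, over 9570 genes. In edgeR's quasi-likelihood test of the difference, 0 genes rose more at membranes (0%) and 1 rose less (0.0104%), with 739 at an unadjusted p under 0.05. With the culture as a replicate block the counts were 6 and 2, limma called 0 and 0, and without the cytosol library of 20 min, replicate 4, there were 5 and 4, and without that of replicate 3 there were 2 and 0. The gene was Slc35b1, a transporter of the ER and Golgi whose mRNA is membrane-localized. Its share at membranes was 2.26% and 1.88% at 20 min, 2.17% and 2.29% at 40 min, and 2.83% and 3.15% at 60 min, and in the cytosol 0.325% and 0.954%, 7.65% and 7.19%, and 20.8% and 14.2%. The cytosol rose without overlap while the membrane values moved little, and the difference was log2 -4.10 ± 0.75 (adjusted p = 0.0352, edgeR's quasi-likelihood test). The call was lost under limma (adjusted p = 0.0575) and without 8 of the 12 libraries in turn, with adjusted p of 0.0519 to 0.434.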

How the data were processed

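Strand-specific libraries of poly(A)-selected RNA were sequenced in pairs and processed by the authors (STAR 2.7.6, HTSeq 0.11.1 and build mm10 are named in the submitters' processing notes) who deposited unnormalized read counts for each gene, with counts of T positions and T2C conversions for exons and genes. The deposited conversion rate of each library is a fraction from the authors' mixture model, and the deposited ratio is T2C over T divided by this rate. Reads that map to no gene were left out of depths. Exonic T2C counts were fitted with edgeR 4.0.16 in R 4.3.3 (quasi-likelihood, Benjamini-Hochberg), with the log of T counts times the rate as offset and, for centred tests, the log of the library's median share. A gene was called where the adjusted p was under 0.05 and the log2 difference beyond 0.5 in either direction. The 40 min libraries shared the estimate of spread. limma 3.58.1 and DESeq2 1.42.0, other filters, centrings and left-out libraries were alternatives.

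Groups came from the labels, except the dose of the 60 min libraries. Genes were named by rank of share or rise among called genes, in lists by their highest and lowest members, and as examples of the study, with groups added later so named in the text. Members and lists were chosen with earlier results of these data known. No 2 libraries were identical. Replicate numbers were not used to pair the membrane libraries in the main fit. Deviations of same-numbered libraries correlated with r = 0.0398, 0.0347 and 0.067 between times. Membrane and cytosol of 1 number came from 1 culture and correlated as little (r = 0.0293, 0.0278 and 0.0835). This measure therefore cannot tell whether libraries are paired, and blocked counts are given as alternatives. Localization used gene counts of at least 5 CPM. Depth ran from 18934375 to 37447227 gene reads, and a share of 0 can be 0 conversions at this depth. PCR duplicates cannot be told from molecules. Some genes that the naming rule would give are not reported here.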

Additional observations from a re-analysis of the deposited data

Results flagged for a closer look

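Introns gave conversions too, and no comparison above used them. Their share of new RNA at membranes was 28.0% in replicate 3 and 24.9% in replicate 4 at 20 min, well above the median exonic share of 2.68% and 2.88%, and rose to 63.3% and 61.5% at 60 min. A signal of this kind at membranes stands beside the nuclear RNAs measured there, and its source was not tested. Among the 4 membrane libraries of 120 min, the intron share of replicate 5 stood apart at 63.5%, against 71.3% to 72.5% in the other 3; chance flags about 1 in 20 groups of samples.

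Slc35b1 differed between fractions in its rise from 20 to 60 min, by log2 -4.10. Its cytosolic share was low at 20 min and rose, while its membrane share moved little. The call was lost under limma and without most single libraries in turn. The classes of localization differed between fractions as well, with a mean log2 ratio of membrane-localized to cytosol-localized genes of -0.25 at membranes and 1.07 in the cytosol. All 6 libraries of each fraction lay on opposite sides of 0, and this difference was not itself tested.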

How the results depend on the processing

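Named calls by level held more often than named calls by rise. The named genes were picked for extreme values in these same libraries, so this does not measure the order of all genes. All 28 named calls of first genes held with the replicate block, with limma at a pseudocount of 0.005 and without each library in turn. Of the named last genes, all 14 calls that could be compared held with the block and with limma, while 3 of 11 were lost without the 60 min library of replicate 4 and 1 of 8 without that of replicate 3. Calls of rise relative to the median gene from 20 to 60 min were 171 above with the replicate block and 139 with a T minimum of 10000, and with limma 0 above and 0 below at pseudocounts of 0.005 and 0.001 and with the 1st or the 5th percentile subtracted. Centring on the pooled share gave 444 and 131, and TMM 151 and 273. From 20 to 40 min the block gave 131 and 162 and DESeq2 99 and 178, and from 40 to 60 min the block gave 1 and 33 and DESeq2 1 and 23. The block changed no count of levels by over 1.5 times. Its calls of rise were not fewer, and whether the numbers pair the libraries could not be told. Falls of the uncentred share numbered 7 with DESeq2, 6 with limma and 36 with the 1st percentile subtracted. For membrane minus cytosol the replicate block by culture gave 6 and 2, and limma 0 and 0. The cause of these changes was not tested. The 5th percentile was added as an alternative after the data were seen.

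Leaving out 1 library at a time, the rise from 20 to 60 min had 3 to 113 genes above and 55 to 498 below, that from 20 to 40 min 0 to 14 and 1 to 20, and that from 40 to 60 min 0 and 0 to 5. Levels at 20 min had 2343 to 2921 genes above and 479 to 1163 below, and at 60 min 2563 to 3485 and 1171 to 2463. Falls of the share numbered 6 to 14, and membrane minus cytosol gave 0 to 5 above and 0 to 4 below. The rise from 15 to 30 min had 674 to 1523 above and 194 to 705 below, and that from 60 to 120 min 392 to 660 and 647 to 1101. The log2 ratio by localization stayed between -0.27 and -0.25, and those of N-terminal, other and C-terminal segments between -0.23 and -0.21, -0.18 and -0.15, and -0.16 and -0.14, each with an exact sign-flip permutation p of 0.0625, the smallest that 5 libraries can give. Other settings moved the ratio by localization more, from -0.31 with limits of 4 and 1 to -0.14 with a T minimum of 10000. With a hydropathy threshold of 1.8, N-terminal, other and C-terminal segments gave -0.19, -0.13 and -0.23. With a window of 21 residues they gave -0.19, -0.16 and -0.23.

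Median shares at 20, 40 and 60 min were 4.53%, 6.91% and 11.8% for pooled counts, 2.63%, 4.62% and 8.24% with a T minimum of 10000, and 2.01%, 4.06% and 7.12% with the 5th percentile subtracted, and 8.31% at 60 min with the 1st. Spearman's rho of the rise with length was 0.172 for exonic length, 0.0405 for the number of exons and 0.161 with a T minimum of 10000, against 0.112. Depth limits both ends: 7 of the 8 last genes rest on 16 to 73 conversions at 60 min, and the named largest rises on 3 to 18 at 20 min.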
